A study of Mus musculus with 6 samples.

Results

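The genes described here encode 10 surface proteins by which blood stem cells, progenitors and leukemia stem cells are recognised or sorted, the chemokine receptor CXCR4 among them: Cd34, Ly6a (Sca-1), Prom1 (CD133), Slamf1 (CD150), Cd48, Cd44, Cxcr4, Cd9, Fcgr3 (CD16) and Procr (EPCR). They were listed by name, with no threshold on a value, but when earlier results of these data, such as the variation of Cd34 within both groups, were known. All 10 had a row among the 53618 named rows of the table. Of the 10 genes, 5 had enough reads to be among the 12298 genes tested and 5 did not.

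The libraries were bulk RNA-seq of GFP+Lin-c-Kit+ splenocytes from mice that carried a transplanted acute myeloid leukemia. The leukemia cells were Usp18+/f UBCER-Cre cells transduced with a retrovirus for AE9a, a truncated AML1-ETO fusion protein, and GFP. Recipients that had become sick received oil, which leaves the cells Usp18+/f, or tamoxifen, which activates the Cre recombinase that the ubiquitin C promoter drives in all tissues of this line and is meant to give Usp18+/Δ cells, and the cells were sorted 3 days after the first injection. Each group held 3 libraries from 3 mice, and p-values measure the spread between them. All groups share the floxed allele, the Cre transgene and the oncogene, and none of these libraries came from cells given tamoxifen without the floxed allele.

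Blood stem cells are rare cells that sit in a marrow niche, and no single surface protein marks them. In the mouse they are found among c-Kit+ Sca-1+ cells that lack lineage proteins, and within these by CD150 without CD48, while more committed myeloid progenitors lose Sca-1 and are divided by CD34 and CD16/32. CXCR4 binds the chemokine CXCL12 made by niche cells and holds stem cells and many leukemia cells in the marrow.

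Usp18, the targeted gene and itself induced by interferon, had 217, 214 and 176 normalized counts (reads divided by the size factor of the library) in oil 1 to 3 and 477, 329 and 284 in tamoxifen 1 to 3. It was higher in all libraries labelled tamoxifen, against the direction of a lost allele, and limma gave 0.81 ± 0.25 on the log2 scale (standard error, n = 3 and 3) at an adjusted p of 0.666, and 0.60 ± 0.15 at an adjusted p of 0.181 without tamoxifen 1. With a weight for each library it was 0.52 ± 0.13 at an adjusted p of 0.0348. Reads of both alleles were counted together. The names oil 1 to 3 and tamoxifen 1 to 3 below are therefore labels of libraries and no statement on the state of the allele. The library labelled tamoxifen 1 stood apart from the other libraries. Its median correlation with them was 0.913 where that of each other library was at least 0.981, 0.00923% of its reads were mitochondrial against 1.01% to 1.56%, and its deviations followed the GC content of the gene with a Spearman correlation of 0.687 across genes, which are not independent. Log2 fold changes are therefore also given without it. The 6 libraries held 19172471 to 23785143 reads.

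The c-Kit part of the sort was visible in Kit, the receptor for stem cell factor. Kit had 8990.5, 8043 and 7512 normalized counts in oil 1 to 3 and 4687, 7749 and 10976 in tamoxifen 1 to 3. The log2 fold change was -0.15 ± 0.31 (adjusted p = 0.810 by limma), and 0.18 without tamoxifen 1. Ptprc, the common leukocyte antigen CD45, was nearly absent, with 0.898 to 8.08 normalized counts. Gata1 and Klf1, transcription factors of red cell and, for Gata1, mast cell progenitors, lay between 4942 and 11837 normalized counts. The granulocyte progenitor genes Mpo, Elane and Cebpa did not exceed 20.2. All 3 were higher in every tamoxifen library than in any oil library. In oil Mpo did not exceed 4.64 and Elane 1.86, and Cebpa had no read. Mpo and Cebpa were below the filter, and Elane was at 2.52 ± 0.56 (adjusted p = 0.666 by limma). Spi1, a regulator of myeloid genes, had 1679.7, 1637 and 1523 normalized counts in oil 1 to 3 and 3428, 1593 and 1555 in tamoxifen 1 to 3. These last 6 genes were chosen after their values were seen.

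Among the 5 members that reached the filter, Cd44 had the highest mean for its length in oil and Fcgr3 in tamoxifen, and Ly6a was the lowest in all 6 libraries. Levels are compared between genes only after division by the length of all annotated exons of the gene, since a longer transcript gives more reads. In oil the normalized counts per kilobase of exon were 482 ± 1.28 (SD, n = 3) for Cd44, 331 ± 144 for Fcgr3, 200.9 ± 52.4 for Cd48, 67.7 ± 41.8 for Cd34 and 12.5 ± 2.26 for Ly6a. In tamoxifen they were 518 ± 179 for Fcgr3, 418 ± 134 for Cd44, 279 ± 221 for Cd48, 87.4 ± 58.5 for Cd34 and 25.4 ± 22.6 for Ly6a. On the same scale Kit was at 918 ± 84.1 in oil and 876 ± 353 in tamoxifen. The neighbours Cd44 and Fcgr3 overlapped, since Fcgr3 in oil 1 was at 497, and so did Fcgr3 and Cd48, whose highest oil library was at 261 where the lowest Fcgr3 library was at 246. The levels of Cd48, Cd34 and Ly6a did not overlap in the oil libraries: the lowest Cd48 library was at 168, Cd34 lay between 39.4 and 116, and the highest Ly6a library was at 14.9.

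**Figure D1:**
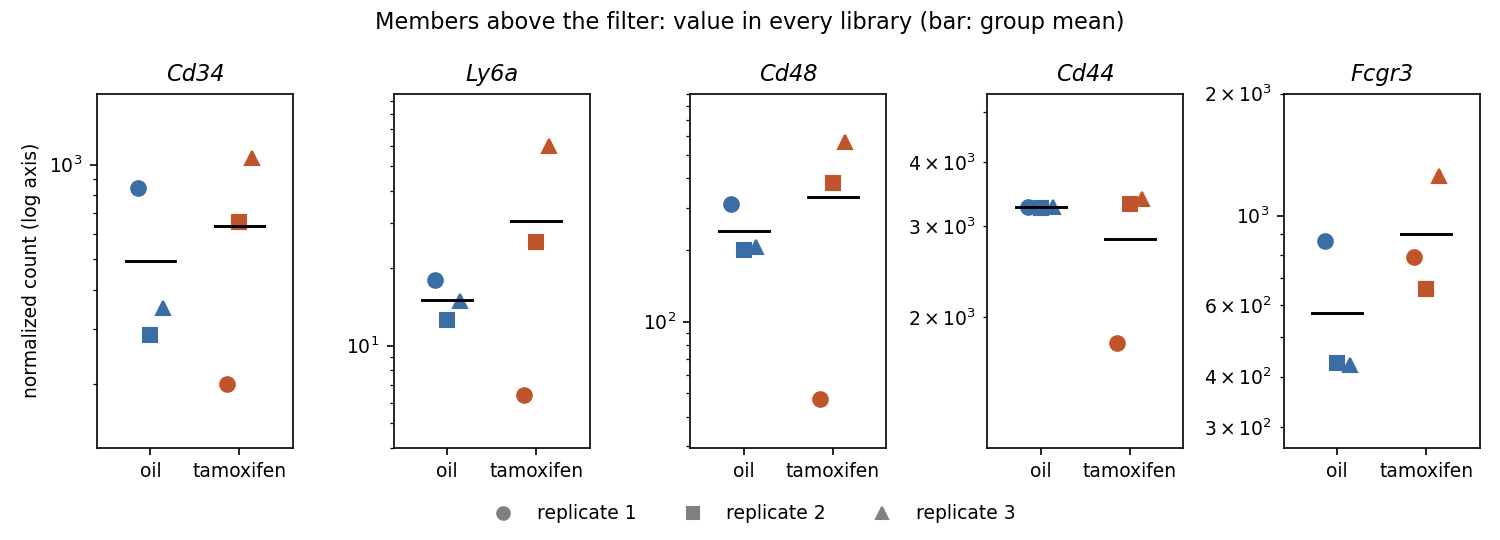
Normalized count (log axis, a range of its own in each panel) of the 5 tested members in the 3 libraries labelled oil (blue) and the 3 labelled tamoxifen (orange); symbols give the replicate number and bars the group mean. The library labelled tamoxifen 3 is the highest in every panel and tamoxifen 1 is the lowest in every panel but that of Fcgr3, and the groups overlap in all 5.

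Cd34 encodes a sialomucin of stem and progenitor cells and of endothelium. Its gene (ENSMUSG00000016494.9) lies at chr1:194938819-194961279 on the plus strand of GRCm38 in GENCODE vM21. It had 843, 288 and 349 normalized counts in oil 1 to 3 and 200.7, 658 and 1052 in tamoxifen 1 to 3. Both groups held a high and a low library, and the spread within a group was larger than the distance between the group means of 493 ± 305 and 637 ± 426 (SD, n = 3). The highest library labelled oil was 2.93 times the lowest, a spread that was known when the genes were listed and is given as a description. The log2 fold change of tamoxifen against oil was 0.24 ± 0.68, with an adjusted p of 0.862 (limma), and without tamoxifen 1 it was 0.92 ± 0.39 with an adjusted p of 0.391. It turned to -0.07 without oil 2 and to -0.27 without tamoxifen 3. An antisense gene that overlaps Cd34, Gm16897, had at most 9.09 normalized counts in a library. The strand setting of the counting is not given in the sources used here, so reads of the 2 genes cannot be told apart.

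Ly6a encodes Sca-1, the GPI-anchored protein that separates stem cells from committed myeloid progenitors among c-Kit+ cells and is induced by interferon in many blood cells. It lies in the Ly6 cluster at chr15:74994877-74998031 on the minus strand (ENSMUSG00000075602.10). It had 18.0, 12.5 and 14.9 normalized counts in oil 1 to 3 and 6.39, 25.3 and 60.0 in tamoxifen 1 to 3. The libraries tamoxifen 2 and 3 lay above all oil libraries and tamoxifen 1 lay below them all. The log2 fold change was 0.51 ± 0.75 with an adjusted p of 0.738 (limma). Without tamoxifen 1 it was 1.33 ± 0.41, with an adjusted p of 0.250. Without tamoxifen 3 it was -0.20. How reads shared with other Ly6 genes were counted is not given in the sources used here.

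Cd48 encodes a small GPI-anchored member of the SLAM family and the ligand of CD244, and is carried by most leukocytes but not by resting stem cells. It lies at chr1:171682009-171705258 on the plus strand (ENSMUSG00000015355.13). It had 311, 199.7 and 206 normalized counts in oil 1 to 3 and 47.3, 382 and 566 in tamoxifen 1 to 3. As for Ly6a, tamoxifen 2 and 3 exceeded every oil library and tamoxifen 1 lay below them all, and Cd48 and Ly6a had the same order of all 6 libraries, which 42 of the 12298 genes tested (0.342%) shared, these 2 included. The log2 fold change was -0.10 ± 0.89 over all libraries, with an adjusted p of 0.957, and 0.99 ± 0.22 without tamoxifen 1, with an adjusted p of 0.140 (limma). DESeq2 on the recovered reads gave 0.47 ± 0.68 with an adjusted p of 0.846 over all libraries and 1.003 ± 0.23 with an adjusted p of 0.0025 without tamoxifen 1. Cd48 was the single member called in that fit, in which 230 of 23788 genes with a p-value (0.967%) were called. Low genes were not removed before it. The direction of Cd48 thus differed between fits, and it was also positive with edgeR (0.50) and with the GC correction (0.28) over all libraries.

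Cd44 encodes the hyaluronan receptor, which anchors stem and leukemia cells to the niche. Its gene spans chr2:102811141-102901665 on the minus strand (ENSMUSG00000005087.17). Cd44 was the steadiest of the tested members in oil. It had 3268, 3256 and 3273 normalized counts in oil 1 to 3 and 1780.3, 3315 and 3395 in tamoxifen 1 to 3. In tamoxifen its highest library was 1.907 times the lowest, and that of Fcgr3 was 1.901 times. The highest oil library exceeded the lowest by a factor of 1.01, and 99.9% of the genes tested had a ratio at least as large. The log2 fold change was -0.27 ± 0.27 with an adjusted p of 0.668 (limma) and 0.039 ± 0.070 without tamoxifen 1. The values count all splice forms together.

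Fcgr3 encodes the activating low-affinity receptor for IgG, one of the proteins bound by the CD16/32 antibodies that divide myeloid progenitors, and lies at chr1:171051174-171064935 on the minus strand (ENSMUSG00000059498.13). It had 863, 433 and 427 normalized counts in oil 1 to 3 and 789.8, 658 and 1250.4 in tamoxifen 1 to 3. The oil libraries held 1 high and 2 low values, and the tamoxifen libraries lay above the 2 low ones. Fcgr3 was the single tested member that was not lowest in tamoxifen 1. The log2 fold change was 0.67 ± 0.36 with an adjusted p of 0.666 (limma), and it was 0.74 ± 0.33 without tamoxifen 1. It stayed positive in all 19 alternatives, which refit the same libraries, where Ly6a did in 17 of 18 and Cd34 in 17 of 19.

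No member was called: limma gave 0 calls among the 5 members tested and 0 (0.0%) among all 12298 genes at an adjusted p under 0.05, with 550 genes (4.47%) at an unadjusted p under 0.05, none of them a member. DESeq2 on the recovered reads called 71 of 24246 genes with a p-value (0.293%) over all libraries and no member. Low genes were not removed before that fit, and by default DESeq2 can leave genes of low mean without an adjusted p. The groups overlapped for all 5 members, while 7.86% of the genes tested were higher and 9.69% lower in tamoxifen with no overlap. An exact permutation test of 3 libraries against 3 can give no p below 0.1, and the members gave values from 0.3 (Fcgr3) to 1.0 (Cd48 and Cd44). The median log2 fold change was 0.24 over the 5 members and -0.02 over all genes tested, and 0.92 and -0.02 without tamoxifen 1. With tamoxifen 1 left out, both tamoxifen libraries lay above all oil libraries for 3 members, Ly6a, Cd48 and Cd44, as for 12.6% of the genes tested, and limma called 41 genes (0.333%) and no member. With a weight for each library, estimated from the data, limma called 782 genes (6.36%) and 3 members, Ly6a at 1.69 ± 0.35 (adjusted p = 0.017), Cd48 at 1.16 ± 0.23 (0.013) and Fcgr3 at 1.06 ± 0.26 (0.033), and the weights ran from 0.0377 for tamoxifen 1 to 3.37 for tamoxifen 3, the highest library for all 5 members. In bulk RNA a difference in the number of cells of a type and a difference in RNA per cell cannot be told apart.

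**Figure D2:**
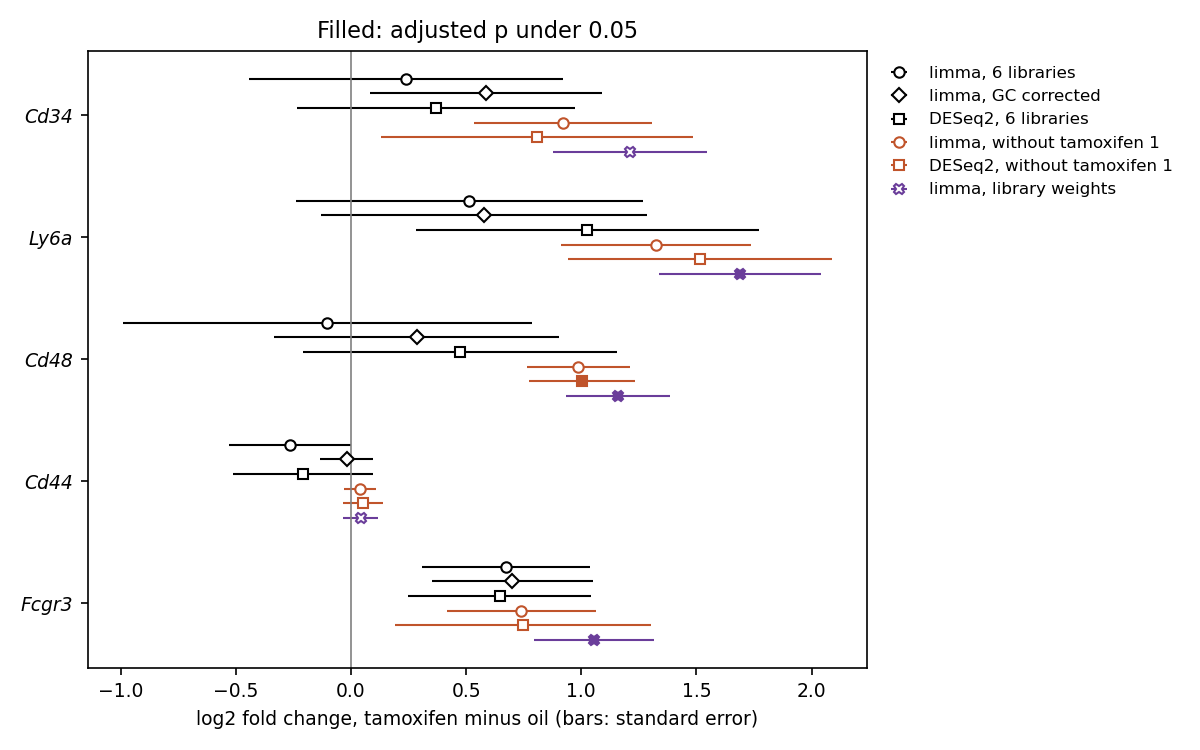
Log2 fold change of tamoxifen against oil for the 5 tested members in 6 fits, with standard errors; filled symbols have an adjusted p under 0.05. The values of Cd48 run from -0.10 over all libraries to 1.16 with library weights, whereas those of Fcgr3 stay between 0.65 and 1.06.

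The members differed in how they moved from library to library. The library labelled tamoxifen 3 was the highest for all 5 members, as it was for 12.2% of the genes tested, and tamoxifen 1 the lowest for 4 of 5, as for 41.6% of the genes tested. For the distances between profiles, the log2(value + 1) values of each gene were centred on their own mean. The root mean square difference over the 6 libraries was 0.42 between Cd34 and Ly6a. It was 0.47 between Ly6a and Cd48 and 0.52 between Cd34 and Cd48. Cd48 and Fcgr3 were the pair farthest apart, at 1.11. Without tamoxifen 1 this pair was among the closer ones, at 0.22, and so were Cd34 and Fcgr3, at 0.21. These likenesses are over 5 or 6 libraries that differ in depth and GC profile and are descriptions.

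**Figure D3:**
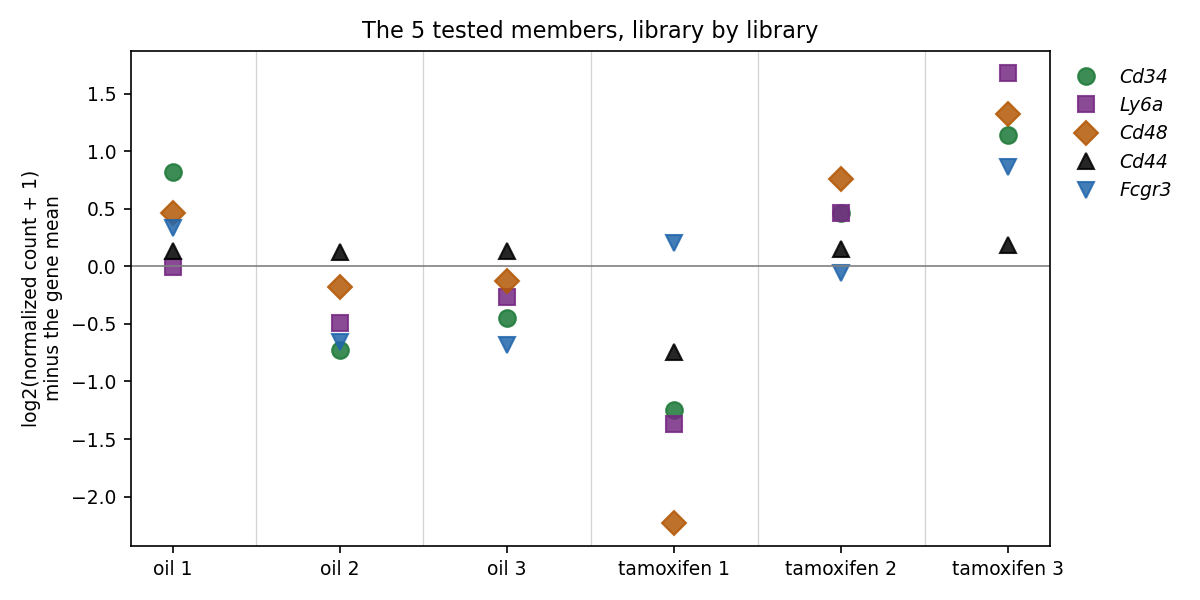
Log2(normalized count + 1) of the 5 tested members minus the mean of each gene, for each library. Cd34, Ly6a, Cd48 and Cd44 drop in tamoxifen 1, Fcgr3 does not, and Cd44 is flat over the other 5 libraries.

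The distance of tamoxifen 1 from the other libraries differed between the members and is set here beside that of genes of like GC content, since the deviations of this library followed GC. Cd48, whose longest transcript has a GC content of 41.99%, lay 2.68 on the log2 scale below the mean of the other 5 libraries, and the middle 50% of the 858 genes tested within 1 percentage point of this GC content lay 0.49 to 1.67 below. Ly6a (48.1% GC) lay 1.64 below, where the middle 50% of genes of like GC content ran from 0.64 below to 0.31 above. The values of Cd34 (42.8% GC, 1.49 below), Cd44 (44.5%, 0.89 below) and Fcgr3 (49.2%, 0.24 above) were inside the middle 50% of their GC classes. After the GC correction the normalized count of Cd48 in tamoxifen 1 was 97.9, that of Ly6a 7.10 and that of Cd44 2781, all 3 still the lowest of the 6 libraries, while Cd34 was at 380.1, above oil 2 and oil 3. The part of GC content in these values was not tested further.

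The genes with the nearest profiles over the 6 libraries were Gm14027 and Smpx for Cd34 (root mean square difference 0.24 and 0.30), Gpr171, Vmn2r84 and Ccdc180 for Ly6a (0.17 to 0.21), B3gat2, Zfp937 and Gm30648 for Cd48 (0.22 to 0.24), Zfp445, Cyb5a and Prpf4b for Cd44 (0.023 to 0.027), and Cbln3, Rgs18 and Cplx2 for Fcgr3 (0.14 to 0.15). Some of them were low: Gm14027, B3gat2, Zfp937 and Cbln3 had 48, 76, 83 and 95 reads over all 6 libraries. In tamoxifen 1 Gm14027 had 2 reads, and B3gat2 and Zfp937 had 1 each. Gpr171, an orphan G protein-coupled receptor, had 63.8, 51.1 and 52.0 normalized counts in oil 1 to 3 and 20.4, 88.9 and 162 in tamoxifen 1 to 3. Rgs18, a regulator of G protein signalling in blood cells, had 69.2, 36.7 and 42.7 in oil and 71.6, 48.5 and 103 in tamoxifen. Without tamoxifen 1, a comparison added after the data were seen, the genes nearest to Cd48 were Tyrobp, Cx3cr1 and Tdrd7 (0.090 to 0.12), the first an adaptor and the second a chemokine receptor of myeloid and natural killer cells. Tyrobp had 48.5, 31.8 and 31.6 normalized counts in oil and 51.5 and 89.1 in tamoxifen 2 and 3.

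The 5 members below the filter had between 3 and 22 reads each over all 6 libraries together. A count of 0 in a library allows up to 3 reads, which is a CPM of 0.126 to 0.157, and reads without molecular identifiers make this a limit of counting error alone. No fold change is given for these genes.

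**Figure D4:**
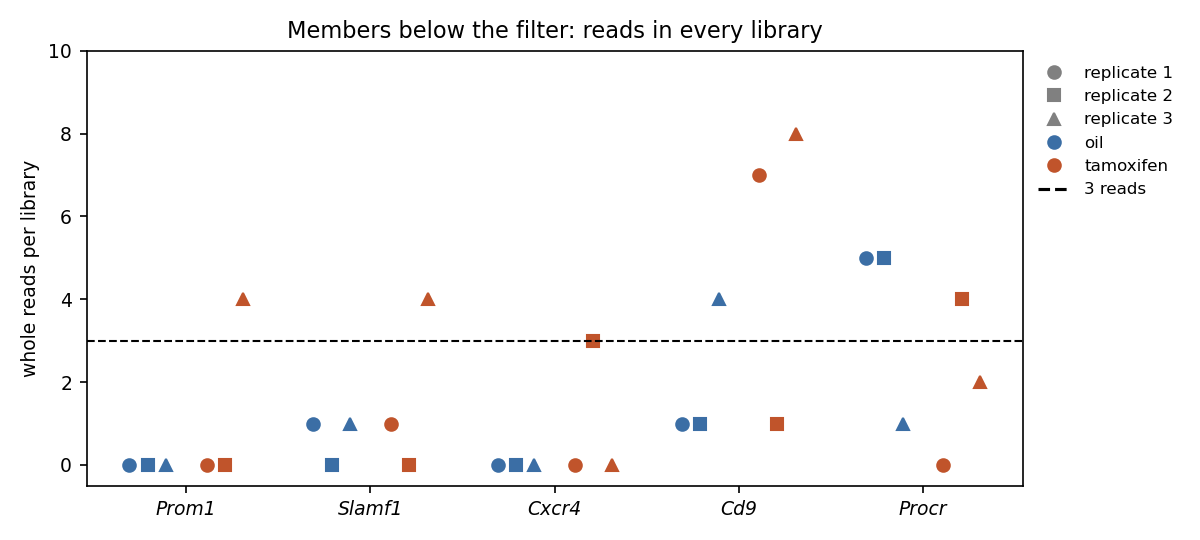
Whole reads of the 5 members below the filter in each library; colours give the group, symbols the replicate number, and the dashed line marks 3 reads. Cxcr4 has 3 reads in tamoxifen 2 and none elsewhere, and no gene passes 8 reads in a library.

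Cxcr4 (ENSMUSG00000045382.6, chr1:128588199-128592293, minus strand) had no read in any oil library and none in tamoxifen 1 or 3, and 3 reads in tamoxifen 2. Transcripts of the receptor were thus at or under the detection limit in all 6 libraries, and a difference between the groups was not detectable at this depth. In the 5 libraries with no read, Cd44 exceeded for its length the level that 3 reads of Cxcr4 would give, by 123.9-fold in tamoxifen 1 and by 300-fold to 332-fold in the other 4, which are lower bounds. Prom1, a pentaspan protein of stem cell membrane protrusions (ENSMUSG00000029086.15, chr5:43993620-44102032, minus strand), had no read in 5 libraries and 4 reads in tamoxifen 3. Slamf1, the SLAM receptor that marks long-term stem cells (ENSMUSG00000015316.11, chr1:171767127-171801184, plus strand), had 1, 0 and 1 reads in oil 1 to 3 and 1, 0 and 4 in tamoxifen 1 to 3.

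Cd9, a tetraspanin of stem cells, platelets and mast cells (ENSMUSG00000030342.8, chr6:125460266-125494791, minus strand), had 1, 1 and 4 reads in oil 1 to 3 and 7, 1 and 8 in tamoxifen 1 to 3. The groups overlapped, since tamoxifen 2 was at the level of the low oil libraries. Procr, the endothelial protein C receptor that is also carried by quiescent stem cells (ENSMUSG00000027611.12, chr2:155751117-155755471, plus strand), had 5, 5 and 1 reads in oil and 0, 4 and 2 in tamoxifen. Both groups held libraries on either side of 3 reads.

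The promoter windows of Cd34 and Cd48, which were tested, and of Cxcr4 and Cd9, which were at or near 0, are shown because those of Cxcr4 and Cd9 hold the most CpG dinucleotides among the members. Each is the RefSeq sequence of GRCm38.p6 from 250 bases before to 50 bases after the start of the gene, 5′ to 3′ on the strand of the gene, with every CpG in capitals.
Cd34: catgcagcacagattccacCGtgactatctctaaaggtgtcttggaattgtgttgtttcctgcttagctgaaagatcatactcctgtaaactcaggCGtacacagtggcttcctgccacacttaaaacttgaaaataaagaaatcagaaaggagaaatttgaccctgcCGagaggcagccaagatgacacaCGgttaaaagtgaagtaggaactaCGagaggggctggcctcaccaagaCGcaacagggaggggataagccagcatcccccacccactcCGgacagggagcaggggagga
Cd48: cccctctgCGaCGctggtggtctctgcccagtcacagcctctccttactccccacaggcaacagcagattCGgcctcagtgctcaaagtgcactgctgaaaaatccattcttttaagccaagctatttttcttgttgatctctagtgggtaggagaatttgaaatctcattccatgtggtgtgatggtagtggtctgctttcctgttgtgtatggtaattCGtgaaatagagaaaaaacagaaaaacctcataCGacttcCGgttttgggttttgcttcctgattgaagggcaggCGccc
Cxcr4: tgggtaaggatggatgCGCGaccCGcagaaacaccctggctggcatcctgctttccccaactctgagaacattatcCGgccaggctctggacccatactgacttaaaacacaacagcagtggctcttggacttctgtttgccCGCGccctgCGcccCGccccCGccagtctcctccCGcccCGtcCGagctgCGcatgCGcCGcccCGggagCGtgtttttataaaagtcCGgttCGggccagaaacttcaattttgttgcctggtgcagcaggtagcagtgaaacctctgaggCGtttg
Cd9: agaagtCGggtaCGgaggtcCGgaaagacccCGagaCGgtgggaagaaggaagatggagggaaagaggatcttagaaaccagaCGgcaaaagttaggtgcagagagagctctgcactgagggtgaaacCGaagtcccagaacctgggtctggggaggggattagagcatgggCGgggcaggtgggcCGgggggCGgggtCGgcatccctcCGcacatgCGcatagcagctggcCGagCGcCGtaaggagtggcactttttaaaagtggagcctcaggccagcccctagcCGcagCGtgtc

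These windows are chr1:194938571-194938870 (plus strand) for Cd34, chr1:171681742-171682041 (plus strand) for Cd48, chr1:128592250-128592549 (minus strand) for Cxcr4 and chr6:125494711-125495010 (minus strand) for Cd9. They hold 7, 7, 20 and 18 CpG dinucleotides, where the median of 32851 mouse windows of the same length was 7, and 26.5% of these windows held at least as many as Cxcr4. Of the 10 members, 9 had a window in the RefSeq table, with 11 windows in all, and Ly6a had none. Among the other members, Cd44 had 6 CpG dinucleotides and the windows of Fcgr3 had 4 and 3, and among those near 0 reads Procr had 13, Prom1 had 10 and 4, and Slamf1 had 4. These counts describe the sequence and are no measure of methylation.

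Motifs of interferon signalling were looked for on both strands of the same windows, because the targeted gene restrains that pathway. The core of the interferon-stimulated response element, GAAA followed by any pair of bases and GAAA, was in 0 of the 11 windows and in 3.44% of all windows. The gamma-activated sequence TTCNNNGAA was in 0 of 11 and in 8.3% of all windows. The RUNX motif TGTGGT, which the AML1 part of the fusion protein is known to bind, was added after the data were seen. It was in 2 windows, 76 to 71 bases before the start of Cd48 and 24 to 19 bases before 1 start of Prom1, and in 16.8% of all windows. No match says only that these letters are not in the window.

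Genes related to the members ranged from no read to abundant. Cd84, a receptor that binds itself on neighbouring cells, lies in the same SLAM cluster on chromosome 1 as Cd48. It had 2852, 2363 and 2263 normalized counts in oil 1 to 3 and 511, 2138 and 2660.0 in tamoxifen 1 to 3. Of the 9 other SLAM receptors and adaptors looked at, Cd84 was the single one tested, and 6 had at most 3 reads in every library, among them Slamf8 and Slamf9 and the adaptor Sh2d1a, which had none. Cd244a, the receptor for CD48, was below the filter with 0.898, 4.82 and 3.71 normalized counts in oil 1 to 3 and 10.2, 8.08 and 32.7 in tamoxifen 1 to 3. The tamoxifen libraries lay above the oil libraries for Cd244a, with no test.

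**Figure D5:**
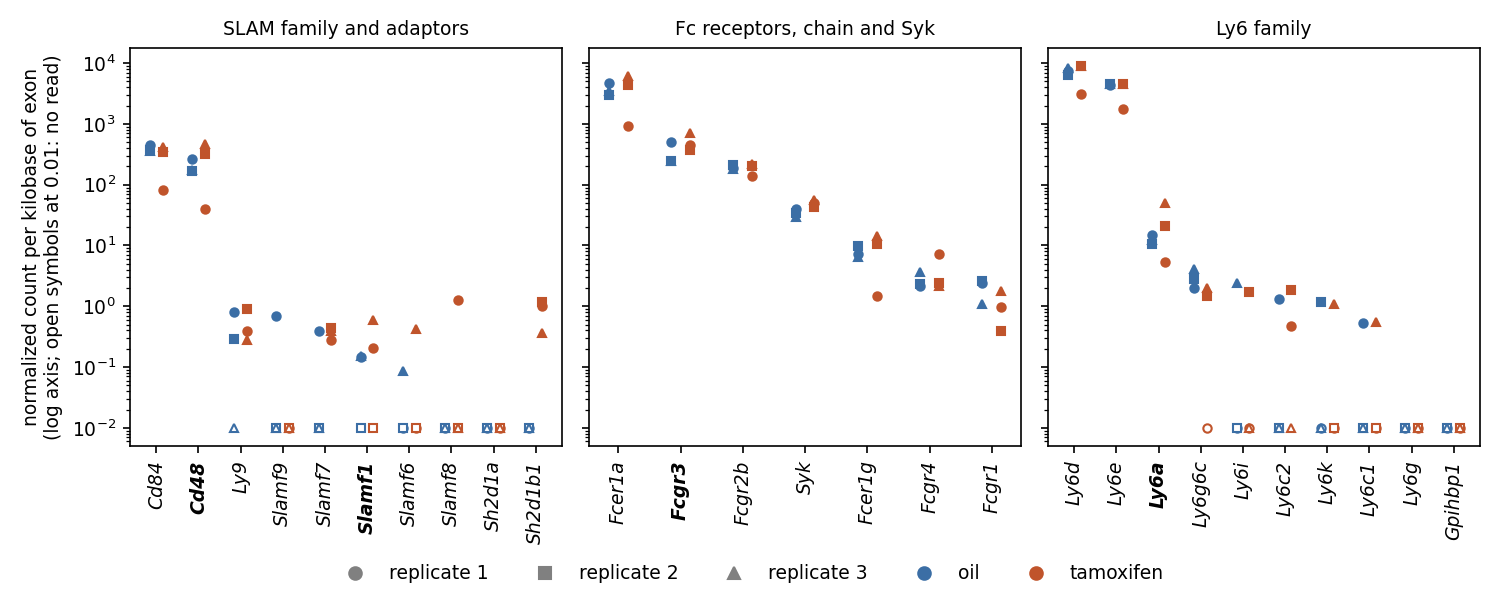
Normalized counts per kilobase of exon (log axis) in each library for the SLAM family, the Fc receptors with their signalling chain, and the Ly6 family; members are in bold, colours give the group, symbols the replicate number, and open symbols at 0.01 mark libraries with no read. Cd48 and Fcgr3 lie near the top of their families, Ly6a lies far below Ly6d and Ly6e, and Slamf1 is among the SLAM genes near 0.

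Among the Fc receptors, Fcgr2b, the inhibitory receptor bound by the same CD16/32 antibodies, had 194 ± 13.8 (SD, n = 3) normalized counts per kilobase in oil, where Fcgr3 had 331 ± 144, and the 2 genes have similar coding sequences, so how shared reads were counted can move both. Fcer1a, the alpha chain of the IgE receptor of mast cells and basophils, had 4713, 2986 and 3527 normalized counts in oil 1 to 3 and 936, 4388 and 6231 in tamoxifen 1 to 3. Fcer1g, the chain that carries Fcgr3 to the surface in other cells, had 1.28 to 12.7 normalized counts over the 6 libraries. Of the 6 genes of this list, 3 were tested and 0 called, with a median log2 fold change of -0.08 (0.51 without tamoxifen 1). Syk, a kinase that the activating receptors recruit, did not overlap between the groups. It had 372, 322 and 277 in oil and 475, 401 and 520.2 in tamoxifen (0.53 ± 0.20, adjusted p = 0.666 by limma, and 0.51 without tamoxifen 1).

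In the Ly6 family, Ly6e and Ly6d were abundant and were the 2 of 9 genes tested, neither of them called (median log2 fold change -0.33, and 0.16 without tamoxifen 1). Ly6e had 16552, 16956 and 17325 normalized counts in oil 1 to 3 and 6542, 17313 and 17097 in tamoxifen 1 to 3. Ly6d had 5552, 4777 and 6153 in oil and 2279, 6709 and 6723 in tamoxifen. Per kilobase Ly6d stood at 7384 in oil, against 12.5 for Ly6a, and 5 of the 9 genes had at most 3 reads in every library.

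The receptor CXCR4 itself was not detected above the limit, and the genes that act with it ranged widely. Of 20 genes of CXCR4 signalling and trafficking, 17 were tested, 0 were called and the median log2 fold change was 0.14, and -0.01 without tamoxifen 1. Gnai2, an inhibitory G protein subunit, had 11876, 12024 and 12107 normalized counts in oil 1 to 3 and 18674, 11521 and 10824 in tamoxifen 1 to 3. At the low end Pik3r5, a subunit of a lipid kinase, had 0 to 4 reads in a library and Grk3, a receptor kinase, had 1 to 7. The 3 genes with the smallest p were Cxcl12, the ligand (0.90 ± 0.46), Rac2, a small GTPase of blood cells (0.30 ± 0.17), and Rgs18 (0.56 ± 0.39), each with an adjusted p of 0.666 by limma, and without tamoxifen 1 they were at 0.66, 0.16 and 0.56. Cxcl12 had 11.7, 6.75 and 4.64 normalized counts in oil 1 to 3 and 20.4, 13.1 and 10.9 in tamoxifen 1 to 3. Ackr3, the other receptor of this ligand, had no read in any library.

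Among 20 other surface genes of stem and progenitor cells, 11 were tested and 0 called, with a median log2 fold change of 0.13 (0.22 without tamoxifen 1), and 6 had at most 3 reads in every library. Flt3, a receptor of early lymphoid and myeloid progenitors, had at most 1.28 normalized counts, and Cd96 had no read. Itga2b, the integrin CD41 of megakaryocytes and early progenitors, had 191, 164 and 158 normalized counts in oil 1 to 3 and 616, 182 and 531 in tamoxifen 1 to 3 (1.19 ± 0.46, adjusted p = 0.666). Thy1 (1.21 ± 0.58) and Il1rap (-0.84 ± 0.42) followed, with the same adjusted p by limma. Without tamoxifen 1 the values were 0.86, 1.25 and -0.34. Il1rap, a coreceptor of the interleukin 1 family carried by leukemia stem cells, had 843, 808 and 759 in oil and 222, 641 and 628 in tamoxifen, with no overlap.

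Tetraspanins, the family of Cd9, ranged from below the filter to abundant: 12 of 15 were tested, 0 called, and the median log2 fold change was 0.16 (0.08 without tamoxifen 1). Cd63, a tetraspanin of granules and endosomes, had 1066, 499 and 729.8 normalized counts in oil 1 to 3 and 1213, 1176 and 1342 in tamoxifen 1 to 3 (0.77 ± 0.28, adjusted p = 0.666), and the groups did not overlap. Cd151 (-0.32 ± 0.18) and Tspan31 (-0.39 ± 0.21) had the next smallest p. Without tamoxifen 1 Cd63 was at 0.78, Cd151 at -0.39 and Tspan31 at -0.24. Among 16 partners and relatives of CD44 and CD34, 11 were tested and 0 called, with a median of -0.12 (-0.09 without tamoxifen 1). Hmmr, another hyaluronan receptor, had its 3 lowest values in the tamoxifen libraries (-0.51 ± 0.19, adjusted p = 0.666), with 2764, 2909 and 3034 normalized counts in oil 1 to 3 and 1874, 2605 and 1737 in tamoxifen 1 to 3. Selplg, the selectin ligand, had 1322, 1402 and 1355 normalized counts in oil 1 to 3 and 2624, 1626 and 1799 in tamoxifen 1 to 3 (0.54 ± 0.21). Podxl, a sialomucin of the CD34 family, was at 10649.5, 12127 and 12197 in oil and 16723, 13556 and 12338 in tamoxifen (0.28 ± 0.17), and both lay higher in tamoxifen without overlap at an adjusted p of 0.666 by limma. Tamoxifen 1 was the highest library for both, and without it Selplg was at 0.33 ± 0.08, Podxl at 0.15 ± 0.09 and Hmmr at -0.45 ± 0.14, with adjusted p-values of 0.180, 0.534 and 0.264. Podxl exceeded Cd34 per kilobase in oil, at 2124 against 67.7.

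Of the 9 marker lists reported here, the sums of 3 were higher in tamoxifen, while those of 5 further lists overlapped and those of NK cells were at 0 in every library. The sum over the lineage gate list is not reported here, so these counts do not cover it. The summed normalized counts of 8 macrophage markers were 85.9 to 202 in oil and 242 to 332 in tamoxifen, with 6 to 7 and 6 to 8 markers above 3 reads. Of these 8 markers 6 were tested, and their median log2 fold change was 1.10 (1.21 without tamoxifen 1). Among these 6 markers, 4 were higher in tamoxifen without overlap, as were 7.86% of all genes tested. By limma 3 had an unadjusted p under 0.05, as had 4.47% of all genes tested, and 0 were called (0.0% of all genes tested). Oil 1 had the highest macrophage sum of the oil libraries, at 202 against 85.9 and 107.7 in oil 2 and 3. It was also the highest oil library for Fcgr3, Cd34, Ly6a, Cd48 and Kit, but not for Cd44. Sums of 6 neutrophil markers were 14.4 to 27.0 and 36.4 to 63.6 with Ly6g at 0, and those of 6 B cell markers 13.5 to 27.8 and 50.02 to 57.5 with Ms4a1 at 0. The single neutrophil marker tested, Mmp8, had lower values in tamoxifen on average, at 8.98, 19.3 and 13.0 in oil and 0, 8.08 and 13.6 in tamoxifen (-1.47 ± 1.02, adjusted p = 0.666 by limma, and -0.30 without tamoxifen 1), so that the higher sum came from markers below the filter. In these 3 lists the groups did not overlap, and tamoxifen 1, where Cd48, Ly6a, Cd34 and Cd44 were lowest and Fcgr3 was not, lay within or above the range of the other tamoxifen libraries. The part of such cells in the values of the members was not tested. Sums overlapped between the groups for 6 mast cell and basophil markers (46198 to 49222 and 31491 to 64006), 6 erythroid markers (55645 to 74173 and 59634 to 94742), 6 megakaryocyte and platelet markers (992 to 1079.9 and 896 to 1300.4), 7 T cell markers (40.5 to 68.7 and 33.6 to 104) and 6 endothelial markers (227 to 244 and 242 to 339, with Emcn at 0). Without tamoxifen 1 the mast cell and basophil sums did not overlap: tamoxifen 3 (64006) and tamoxifen 2 (52786) were above all oil libraries and tamoxifen 1 (31491) below them, as for Cd48 and Ly6a. The median log2 fold change of these 6 markers was 0.29, and 0.63 without tamoxifen 1. In that fit limma called 1 of them, and 0.333% of all genes tested. The part of mast cells and basophils in the values of the members was not tested. The 5 natural killer cell markers had no read.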

How the data were processed

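Bulk RNA-seq was carried out on 6 libraries. Reads were processed by the authors with STAR and DESeq2, and the submitters' processing notes name mm10; annotation, strand setting and filters are not given in the sources used here. The deposited values are a normalized signal, which is the count of a gene over the size factor of its library. In each library 100% of values lay within 0.1 of a whole multiple of the value of 1 read, which recovered 19172471 to 23785143 reads per library, so 0 reads allow a CPM of up to 0.126 to 0.157. Of 55450 rows, 1832 had no gene name (0.0400% to 0.0614% of reads) and were left out. Coordinates, exon lengths and GC content came from GENCODE vM21 (GRCm38) by symbol.

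Groups were taken from the sample titles. Tests used limma (3.58.1, in R 4.3.3) on log2(value + 1), which understates changes of low genes, for the 12298 named genes that reached 10 in 3 or more libraries, two-sided, with Benjamini-Hochberg adjustment over all of them and a threshold of 0.05. On simulated data with 200 of 12298 genes changed by 2 on the log2 scale, limma recovered 98% and called 13 unchanged genes. Recovery at the spread of the real libraries was not tested. In the limma fit over all libraries Elane, at 2.52 ± 0.56, had an adjusted p of 0.666. The members and lists were chosen with earlier results of these data known. Named genes were the members, Usp18, Kit, the 3 genes of each surface list with the smallest p, and for each tested member the 3 genes with the nearest centred profile; further relatives and marker genes were named after their values were seen. Some genes that these rules and the marker lists name, and the sum over the lineage gate list, are not reported here.

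Alternatives were DESeq2 1.42.0 and edgeR 4.0.16 run on the recovered reads, pseudocounts of 0.5 and 5, TMM scaling, no filter, a filter of 1 CPM in 3 libraries, a replicate block, library weights, a GC correction (loess, span 0.3), and each library left out. DESeq2 and edgeR without tamoxifen 1, and profile likeness without it, were added after the data were seen.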

Additional observations from a re-analysis of the deposited data

How the results depend on the processing

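Counts of calls depended on the library labelled tamoxifen 1. The count of genes called, 0 with limma over all libraries, was 41 without tamoxifen 1 (0 to 41 over the libraries left out), 782 with library weights, 2 with the GC correction and 71 with DESeq2, and, in fits added after the data were seen, 49 with edgeR and 230 with DESeq2 without tamoxifen 1. It was 0 with edgeR over all libraries. Genes at an unadjusted p under 0.05 numbered 225 to 2872, against 550. Members called were 0 in each limma fit that left out a library, 3 with library weights and 1 with DESeq2 without tamoxifen 1, and genes of the other surface lists called were 0, 11 and 2 in the same order. Calls of members were otherwise 0, and the cause was not tested.

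Directions also changed. Cd34 (0.24) ran from -0.27 without tamoxifen 3 to 0.92 when libraries were left out, with -0.07 without oil 2, and was 1.21 with library weights (adjusted p = 0.053) and 0.58 with the GC correction. Ly6a (0.51) ran from -0.20 without tamoxifen 3 to 1.33 and was 1.69 with library weights, 1.06 with edgeR and 1.03 with DESeq2, and it was not tested under the filter of 1 CPM. Cd48 (-0.10) ran from -0.79 to 0.99 when libraries were left out, with 0.99 without tamoxifen 1 and 0.10 without oil 1. It was 1.16 with library weights, 0.28 with the GC correction, with or without the replicate block, 0.50 with edgeR, 0.47 with DESeq2, and 1.01 and 1.003 with these tools without tamoxifen 1. Cd44 (-0.27) ran from -0.43 to 0.039 (without tamoxifen 1), and was 0.041 with library weights, 0.063 with edgeR and 0.052 with DESeq2 without that library. With the GC correction Cd44 was at -0.019. Fcgr3 (0.67) ran from 0.41 to 1.01 and was 1.06 with library weights. Kit (-0.15) ran from -0.44 to 0.18, and turned to 0.18 without tamoxifen 1, to 0.31 with library weights, and to 0.22 and 0.21 with edgeR and DESeq2 without it. The median of all genes, -0.02 with limma over 12298 genes, was 0.040 with limma and 0.11 with DESeq2 over 24247 genes with no filter. The replicate block left the count of genes called at 0 (Fcgr3 0.67, adjusted p = 0.731 by limma), and in a balanced design it cannot move the fold changes. Libraries of the same number shared deviations with correlations of -0.02, 0.06 and -0.15. These could not show whether the numbers pair libraries, since tamoxifen 1 stood apart and each group held 3. With 3 libraries a group, 1 of them apart from the rest, and 5 members near 0 reads, small differences were not detectable. Larger ones could be missed too, since the standard errors over all libraries were 0.89 for Cd48, 0.75 for Ly6a and 0.68 for Cd34.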
